A study of Mus musculus with 12 samples.

Results

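The genes described here are 10 mouse genes of cellular iron handling: Tfrc, Slc11a2, Steap3, Slc25a37, Slc40a1, Fth1, Ftl1, Ireb2, Aco1 and Iscu. They were picked by name, and each was read from the probe with the highest mean signal among those that carry its RefSeq accession. The signal of a gene had to exceed background clearly on 4 or more of the 12 arrays, and 25581 genes did, all 10 among them. All 10 were also among the 19669 genes that met the matching condition on 8 arrays described below. Tfrc was included because its signal was already known to be low with PP242 in these data, so its values in the comparisons with PP242 are a description with no test. RNA came from NIH3T3 cells, a long-established fibroblast line from mouse embryos, and each sample was hybridised to a 1-colour Agilent array. Cultures received 2 µM PP242, an ATP-competitive inhibitor of the kinase mTOR, or 50 nM rapamycin, an allosteric inhibitor that acts mainly on mTOR complex 1, or the solvent DMSO. Treatment lasted 18 h in every group, there were 4 arrays per group, and the labels name no genetic change. The characteristics and the design text give the PP242 dose in µM, whereas the treatment protocol gives the same figure in mM. The 4 arrays of a group are described as independent experiments, and what was repeated between them is not given further, so p-values measure the spread between these arrays.

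Cells take up iron mainly as transferrin, which binds the transferrin receptor at the surface and is carried into endosomes, where iron is reduced and pumped into the cytosol. Iron that is not used at once is stored in ferritin, exported by ferroportin, or sent to mitochondria for heme and iron-sulfur clusters. Iron regulatory proteins sense the cytosolic supply: when iron is scarce they bind iron-responsive elements, which stabilizes Tfrc mRNA and blocks translation of the ferritin and ferroportin mRNAs.

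Levels are given as log2 of the array's background-subtracted signal minus log2 of that array's 75th percentile, so that 0 is the 75th percentile and a difference of 1 is a doubling of signal. Because probes differ in response, a level is compared between arrays for the same gene and not between genes. On 4 arrays the dim probes were raised: the 75th percentile was 7.05 to 69.5 times the 25th on rapamycin 3, PP242 4, PP242 1 and DMSO 2, against 251 to 406 times on the other 8 arrays. The 75th percentile itself was 7538 units on rapamycin 3, against 984 to 1832 on the other arrays. Rapamycin 3 had 97.9% of its probes well above background and, after scaling, was the lowest of its group for 9 of the 10 genes. PP242 4, with 96.2%, was likewise the lowest of its group for 9 of 10. The part this plays in the results was not tested, and differences of the 10 genes are given for all 12 arrays and for the 8 others (PP242 2 and 3, rapamycin 1, 2 and 4, DMSO 1, 3 and 4). On the 8 arrays, 7 of 7 fibroblast markers were well above background on every array, whereas 0 of 4 epithelial and 0 of 4 endothelial markers were. Of the erythroid markers, 1 of 5 (Hbb-bt) was above background on all 8 arrays. Of the 4 macrophage markers on the array, Csf1r and Cd14 were above background on all 8, Ptprc on 2 and Adgre1 on 1.

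Tfrc encodes the transferrin receptor, the entry point of transferrin iron. In the RefSeq annotation of GRCm38.p6 the gene lies on chromosome 16 from base 32608896 to 32632794, and it was read by 1 probe, A_52_P228236, which carries the accession of a Tfrc mRNA. Because Tfrc mRNA is the quantity that stood apart with PP242, its promoter is shown. The 300 bases from RefSeq at chr16:32608872-32609171, on the plus strand, run 250 bases before and 50 after an annotated start at 32609122 and also cover the start at 32608896. Capitals mark matches, searched on both strands, to the GC box GGGCGG, to the cAMP-response element core TGACGT and to the hypoxia-element core ACGTG.
Tfrc: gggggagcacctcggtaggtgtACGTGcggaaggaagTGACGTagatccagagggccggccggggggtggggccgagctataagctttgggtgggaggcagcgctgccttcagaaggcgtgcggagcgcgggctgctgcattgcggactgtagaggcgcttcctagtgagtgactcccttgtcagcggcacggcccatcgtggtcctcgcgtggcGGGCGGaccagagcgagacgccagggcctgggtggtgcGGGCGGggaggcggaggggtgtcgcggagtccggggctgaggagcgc
The GC box matched with its first base at -35 and 4 from the start at 32609122, TGACGT at -213 and ACGTG at -228. Here 1 is the first transcribed base, and none of these matches overlap. Counted from the start at 32608896, ACGTG begins at -2, across that start, and TGACGT at 14, after it. The E-box CACGTG had no match in this window. Of 32851 mouse promoter windows of this length, 35.7% held GGGCGG, 7.5% TGACGT, 19.6% ACGTG and 7.2% CACGTG.

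Tfrc was lower on every PP242 array than on any array of the other treatments. It stood at -0.62, -0.74, -0.69 and -1.26 on PP242 arrays 1 to 4. On rapamycin arrays 1 to 4 it stood at 1.75, 1.80, -0.10 and 0.63. On DMSO arrays 1 to 4 it stood at 2.75, 2.29, 2.89 and 1.54. The highest PP242 array was thus below the lowest rapamycin array and below the lowest DMSO array, and the nearest array of another treatment was rapamycin 3. The level was well above background on all 12 arrays, so the low PP242 values are measured values rather than bounds.

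**Figure D1:**
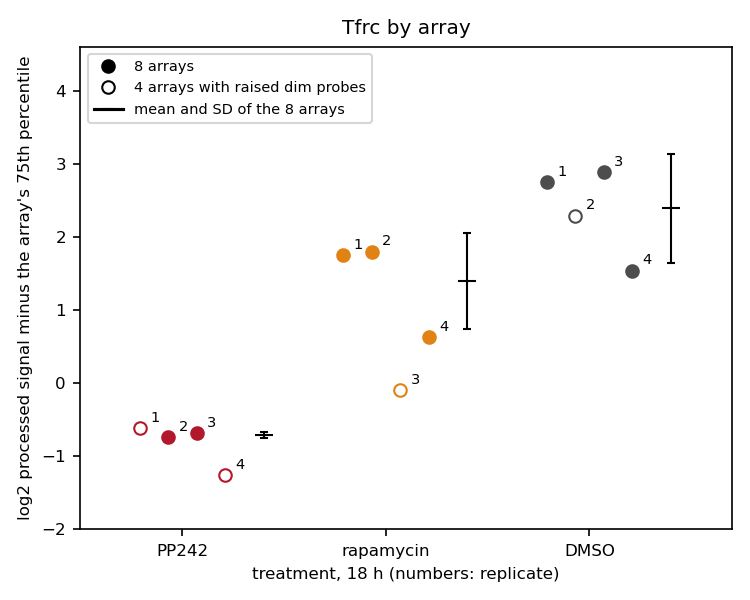
Tfrc level (log2 processed signal minus the array's 75th percentile) on each of the 12 arrays by treatment, with the replicate number beside each point. Filled points are the 8 arrays, open points the 4 arrays with raised dim probes, and bars are the mean and SD of the filled points. The PP242 arrays lie between -1.26 and -0.62, below every rapamycin and DMSO array.

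On all 12 arrays, the Tfrc level averaged -0.82 ± 0.29 with PP242, 1.02 ± 0.92 with rapamycin and 2.36 ± 0.61 with DMSO (SD, n = 4 each). The PP242 minus DMSO difference was -3.19 ± 0.47 (SE), a 9.12-fold lower signal and the lowest difference of all 25581 genes. The PP242 minus rapamycin difference was -1.85 ± 0.47 (3.59-fold lower, 93rd from the lowest). On the 8 arrays the difference from DMSO was -3.10 ± 0.51 (8.59-fold lower, 18th from the lowest of 19669 genes). That from rapamycin was -2.11 ± 0.51 (4.30-fold lower, 171st from the lowest), with 2 PP242 arrays against 3 of each other group. Removing the 4 raised arrays therefore left the size of the difference from DMSO nearly as it was. The SD of the 2 PP242 arrays was 0.04, against 0.66 over rapamycin and 0.74 over DMSO. Because Tfrc was picked for its low signal with PP242, these ranks and standard errors describe it and test nothing.

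The position of Tfrc among all probes of an array, which needs no scaling between arrays, showed the same order. On the 8 arrays the Tfrc probe sat at the 70.3rd to 70.7th percentile with PP242, the 79.2nd to 86.2nd with rapamycin and the 84.6th to 91.7th with DMSO. Before scaling, its processed signal was 617 to 983 units on the 4 PP242 arrays, 2474 to 7046 on the rapamycin arrays and 3414 to 9001 on the DMSO arrays. The value of 7046 came from rapamycin 3, an array with raised dim probes, and the other rapamycin arrays read 2474 to 4390. The arrays were run on 3 slides, and within slides 1, 2 and 3 the PP242 minus DMSO difference was -2.88, -3.26 and -3.50. Only slide 1 made this comparison without arrays with raised dim probes. The DMSO array of slide 2 was DMSO 2, beside PP242 3 and PP242 4, and the PP242 array of slide 3 was PP242 1. Within those slides the PP242 minus rapamycin difference was -2.48, -2.77 and -0.88, and the slide with the smallest value holds rapamycin 3. Centring arrays on the median in place of the 75th percentile changed the 12-array PP242 minus DMSO difference to -4.08, because the median of all genes went from 0.41 to -0.46 under that scaling. Relative to the median gene, the difference was -3.59 with the 75th percentile and -3.62 with median centring. Both scalings subtract a constant from each array, so these figures had to be close. The same difference was -3.25 with normexp background correction, -3.24 with quantile normalisation and -2.71 with the deposited table.

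The rapamycin and DMSO groups overlapped for Tfrc, and their difference did not pass the test. Rapamycin 2, at 1.80, was above DMSO 4, at 1.54, a comparison of different replicate numbers. Between arrays of the same number, rapamycin was below DMSO each time, by -1.003, -0.48, -2.98 and -0.902 for numbers 1 to 4. Numbers 2 and 3 include DMSO 2 and rapamycin 3, arrays with raised dim probes. The descriptions state no pairing by number, and a fit with a block for replicate number did not pass either. The rapamycin minus DMSO difference was -1.34 ± 0.47 on 12 arrays (limma unadjusted p = 0.0160, adjusted p = 0.847) and -0.997 ± 0.46 on 8 arrays (95% interval -2.10 to 0.10, limma adjusted p = 0.424). Within slides 1, 2 and 3 it was -0.40, -0.48 and -2.62. The DMSO array of slide 2 was DMSO 2 and slide 3 held rapamycin 3, both arrays with raised dim probes. Weighting arrays by their quality was the 1 alternative under which it passed, with limma adjusted p = 0.0057 on 12 arrays and 0.0241 on 8, against a range of 0.178 to 0.695 over the other alternatives on 8 arrays.

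Slc11a2, Steap3 and Slc25a37 act after the receptor: Slc11a2 (DMT1) moves ferrous iron out of the endosome, Steap3 is an endosomal ferrireductase, and Slc25a37 (mitoferrin) brings iron into mitochondria. None of the 3 passed in any comparison on 12 or 8 arrays. Slc11a2 lay between -0.07 and -0.01 on the PP242 arrays of the 8, between -0.07 and 0.18 on rapamycin and between -0.11 and 0.31 on DMSO. Its PP242 minus DMSO difference of -0.18 ± 0.15 (8 arrays, limma adjusted p = 0.439) contrasts with -3.10 for Tfrc, although the difference between these genes was not tested. Slc25a37 likewise had nearly equal means, 1.88 ± 0.02 with PP242, 1.89 ± 0.46 with rapamycin and 1.97 ± 0.33 with DMSO (SD, n = 2, 3 and 3). Over 12 arrays the PP242 minus DMSO difference was -0.35 ± 0.38 for Slc11a2 and -0.45 ± 0.49 for Slc25a37.

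Steap3 was the exception in order, though not in test. On the 8 arrays it stood at -1.03 and -0.86 with PP242, -1.30, -1.14 and -2.14 with rapamycin, and -1.49, -1.34 and -1.77 with DMSO. Both PP242 arrays were above all arrays of the other groups, with a difference from DMSO of 0.59 ± 0.31 (limma adjusted p = 0.224). On PP242 4, an array with raised dim probes, Steap3 was -2.37, and over 12 arrays the difference from DMSO was 0.20 ± 0.45.

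Slc40a1 encodes ferroportin, the exporter of ferrous iron. Its levels were -1.26 and -1.01 on PP242 2 and 3, -1.83, -1.82 and -1.63 on rapamycin 1, 2 and 4, and -1.53, -1.42 and -0.99 on DMSO 1, 3 and 4. Rapamycin arrays were thus below every PP242 and DMSO array among the 8, but the differences did not pass: 0.62 ± 0.18 for PP242 against rapamycin (limma adjusted p = 0.0747) and -0.45 ± 0.17 for rapamycin against DMSO (unadjusted p = 0.0330, limma adjusted p = 0.333). The PP242 minus DMSO difference was 0.18 ± 0.18 (limma adjusted p = 0.536). Over 12 arrays the Slc40a1 differences were 0.44 for PP242 against rapamycin, -0.35 for rapamycin against DMSO and 0.09 for PP242 against DMSO, each ± 0.26. DMSO 2 and PP242 4, both arrays with raised dim probes, read -1.79 and -1.82, inside the rapamycin range.

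Fth1 and Ftl1 encode the heavy and light chains of ferritin, the cytosolic iron store. Fth1 stood at 7.92 and 7.43 on PP242 2 and 3, 7.78, 7.65 and 7.54 on rapamycin 1, 2 and 4, and 8.14, 8.08 and 7.83 on DMSO 1, 3 and 4. The rapamycin arrays lay below the DMSO arrays while a PP242 array lay among the DMSO values, and neither -0.34 ± 0.18 for PP242 against DMSO (limma adjusted p = 0.225) nor -0.36 for rapamycin against DMSO (limma adjusted p = 0.415) passed. Ftl1 averaged 7.04 ± 0.10 with PP242, 6.72 ± 0.55 with rapamycin and 6.90 ± 0.46 with DMSO (SD, n = 2, 3 and 3), and its PP242 minus DMSO difference was 0.14 ± 0.37 (limma adjusted p = 0.813). Over 12 arrays Fth1 differed from DMSO by -0.39 with PP242 and by -0.94 with rapamycin, each ± 0.53, and its level on rapamycin 3 was 5.16. Before scaling, Fth1 read 269150 units on that array, within the 233366 to 295789 of the other rapamycin arrays. The PP242 minus DMSO difference of Ftl1 changed sign over 12 arrays, to -0.31 ± 0.59. These are transcript levels, and ferritin is also set at translation, which the arrays do not read.

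Ireb2 and Aco1 encode the iron regulatory proteins, of which the Aco1 product doubles as cytosolic aconitase when it holds an iron-sulfur cluster. On the 8 arrays, Ireb2 rose with PP242 against both other groups. It stood at -2.08 and -2.10 on PP242 2 and 3, at -2.71, -2.64 and -2.74 on rapamycin 1, 2 and 4, and at -2.57, -2.49 and -2.40 on DMSO 1, 3 and 4. The groups did not overlap, and the differences were 0.40 ± 0.09 against DMSO (limma adjusted p = 0.0219) and 0.61 ± 0.09 against rapamycin (limma adjusted p = 0.00939). The difference from DMSO lost its call without DMSO 1 (0.36), DMSO 3 (0.40), rapamycin 1 (0.40), PP242 2 (0.39) or PP242 3 (0.41), and that from rapamycin without PP242 2 (0.60) or PP242 3 (0.62). The rise rests on 1 of 2 probes: the dimmer Ireb2 probe, also above background on all 8 arrays, gave -0.05 for PP242 minus DMSO and -0.12 for PP242 minus rapamycin. With the mean of both probes the difference from DMSO was 0.18 (limma adjusted p = 0.229) and that from rapamycin 0.24, and neither passed. Of 9 other settings, 2 kept the Ireb2 call against DMSO (the filter on all arrays and array weights), and with the slide as a block neither call held (limma adjusted p = 0.161 against DMSO and 0.0891 against rapamycin). Over 12 arrays the Ireb2 difference was 0.65 ± 0.50 from DMSO and 0.26 ± 0.50 from rapamycin, and neither passed. Aco1 did not pass, with means of 2.52 ± 0.04 with PP242, 2.37 ± 0.05 with rapamycin and 2.56 ± 0.16 with DMSO (SD, n = 2, 3 and 3). Its PP242 minus DMSO difference was -0.04 ± 0.11 on 8 arrays and -0.18 ± 0.50 on 12.

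Iscu encodes the scaffold on which mitochondrial iron-sulfur clusters are built. Its level was 4.14 and 4.13 on PP242 2 and 3, against 3.64, 3.74 and 3.15 on rapamycin 1, 2 and 4 and 3.50, 3.56 and 3.36 on DMSO 1, 3 and 4. The PP242 arrays were the highest among the 8, and Iscu rose by 0.66 ± 0.19 against DMSO (1.58-fold, limma adjusted p = 0.0428). The difference from rapamycin was 0.62 ± 0.19 and did not pass (limma adjusted p = 0.0759). The call against DMSO was lost without DMSO 1 (0.68), DMSO 3 (0.71), DMSO 4 (0.60), rapamycin 1 (0.66), PP242 2 (0.65) or PP242 3 (0.67), each time with a value near the full one. It was also lost with the slide block (0.54, limma adjusted p = 0.210), the replicate block (0.49, limma adjusted p = 0.0993) and median centring (0.62, limma adjusted p = 0.144). On the raised arrays Iscu read 3.82 on PP242 1 and 2.62 on PP242 4, and the 12-array difference was 0.27 ± 0.55 (limma adjusted p = 0.837).

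**Figure D2:**
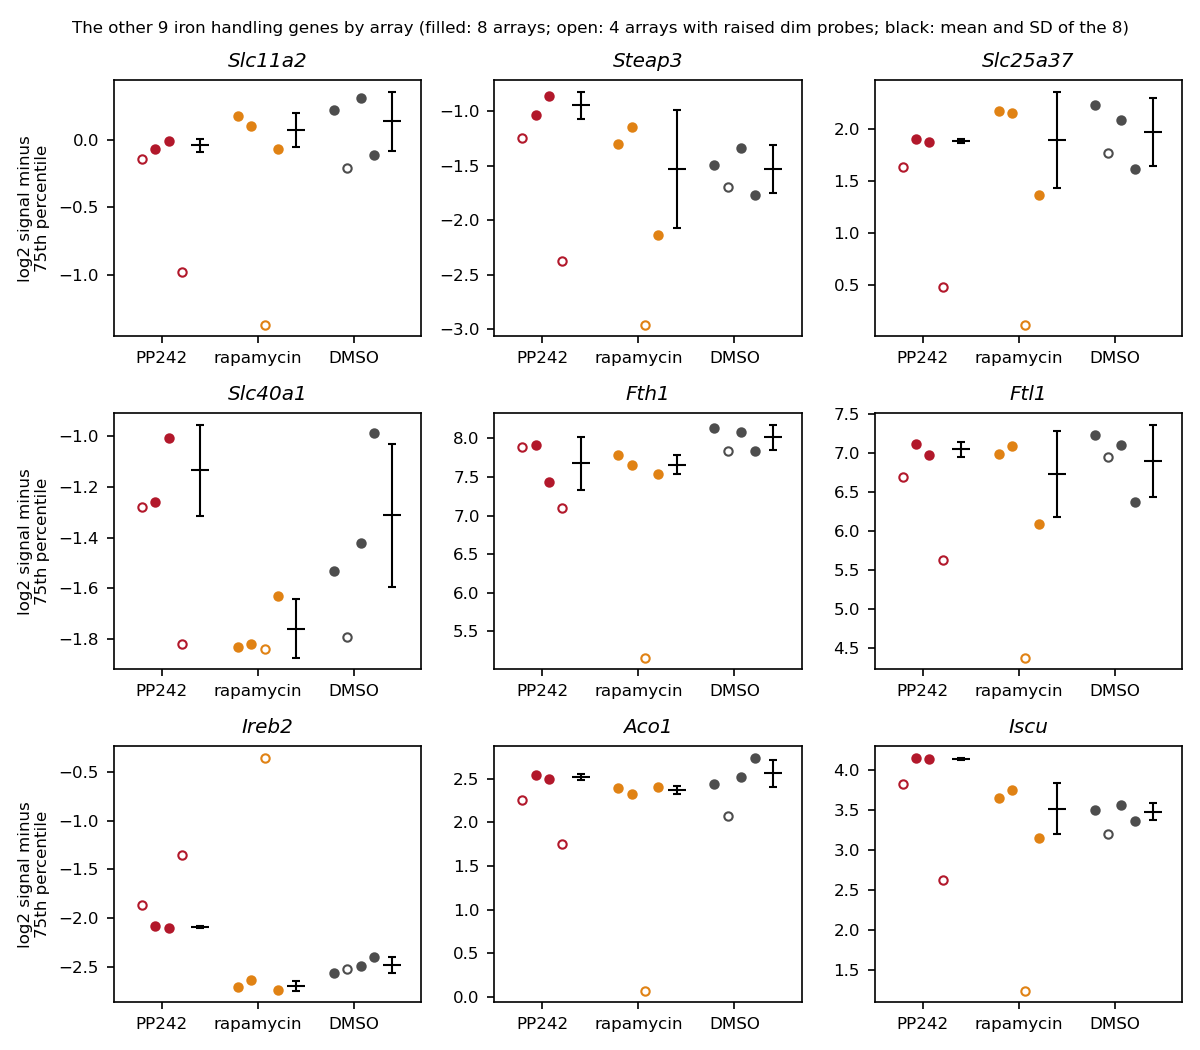
Levels of the other 9 genes (log2 processed signal minus the array's 75th percentile) by treatment, with filled points for the 8 arrays, open points for the 4 arrays with raised dim probes, and the mean and SD of the filled points. Rapamycin 3 and PP242 4 are the lowest open points for most genes, and the filled PP242 points of Ireb2 and Iscu lie above the filled rapamycin and DMSO points.

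Counted over the 9 genes other than Tfrc, 2 rose and 0 fell with PP242 against DMSO on the 8 arrays, where 26.1% of all genes tested passed (12.8% higher and 13.3% lower). Against rapamycin, 1 of 9 rose with PP242 and 0 fell, where 14% of all genes passed (6.67% higher and 7.29% lower). With rapamycin against DMSO, 0 of 9 passed in limma, where 0.0559% of all genes did (0.0356% higher and 0.0203% lower). In that comparison the unadjusted limma p was under 0.05 for 2 of the 9, beside 2596 of all 19669 genes. The shares called in the PP242 comparisons are close to those of all genes. Groups did not overlap for 3, 5 and 4 of the 9 genes in PP242 against DMSO, PP242 against rapamycin and rapamycin against DMSO, beside 58.9%, 53.3% and 18.3% of all genes. The median difference over the 9 was 0.14, 0.32 and -0.18 in the same order, against -0.01, 0.02 and -0.02 over all genes.

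On all 12 arrays, 0 of the 9 genes passed in limma in any comparison, at adjusted p of 0.793 or more, and 0 had an unadjusted p under 0.05. Of all 25581 genes, the unadjusted limma p was under 0.05 for 2214 in PP242 against DMSO. It was under 0.05 for 890 in PP242 against rapamycin and for 451 in rapamycin against DMSO. The background there was 0.344% of all genes called for PP242 against DMSO (0.301% higher and 0.043% lower), 0% for PP242 against rapamycin and 0% for rapamycin against DMSO. The standard errors were 0.26 to 0.59 on 12 arrays and 0.08 to 0.37 on 8. Only Ireb2 had PP242 and DMSO groups that did not overlap over 12 arrays, as for 19.9% of all genes. As a percentile within the array, its groups did overlap, at 59.6 to 62.8 with PP242 and 58.0 to 61.5 with DMSO. Only Fth1 had rapamycin and DMSO groups that did not overlap, as for 2.85% of all genes. Between PP242 and rapamycin the groups of 0 of the 9 genes were apart, beside 2.77% of all genes.

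**Figure D3:**
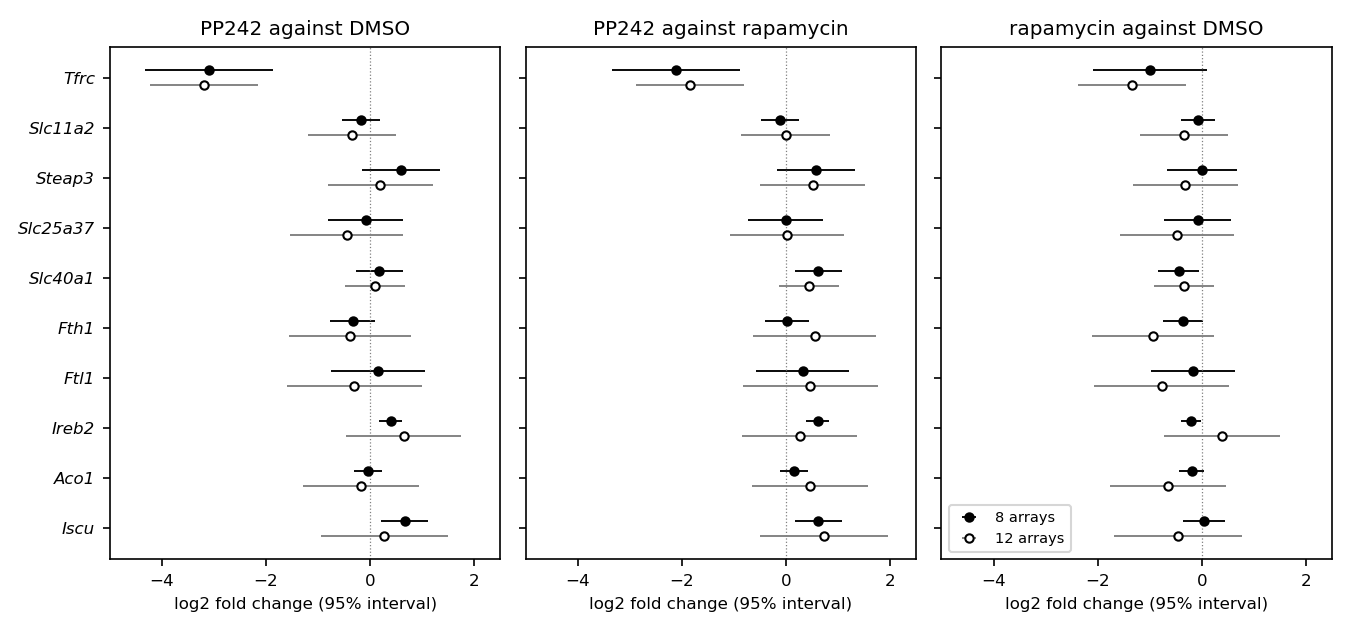
Log2 fold changes of the 10 genes with 95% intervals in the 3 comparisons, from the fits of 8 arrays (filled) and 12 arrays (open). The Tfrc difference between PP242 and DMSO, -3.10 on 8 arrays and -3.19 on 12, lies outside the range of the other 9 genes, which ran from -0.34 to 0.66 on 8 arrays. Tfrc was picked for its low signal with PP242, so its place and intervals in those comparisons are a description and no test.

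Within treatments the genes also varied from array to array. As a deviation from the group mean on the 8 arrays, the Tfrc level correlated with Ftl1 (r = 0.97), Slc25a37 (0.95), Slc11a2 (0.95), Steap3 (0.88) and Iscu (0.86), and inversely with Slc40a1 (-0.83). These values describe 8 arrays that share 3 group means, and DMSO 4 and rapamycin 4 supply most of the spread, with deviations of -0.85 and -0.76 for Tfrc. Of 10763 genes measured well above background on all 8 arrays, 24.6% had a within-treatment r with Tfrc over 0.8, so 5 of the 9 genes above that value are set against a common pattern.

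**Figure D4:**
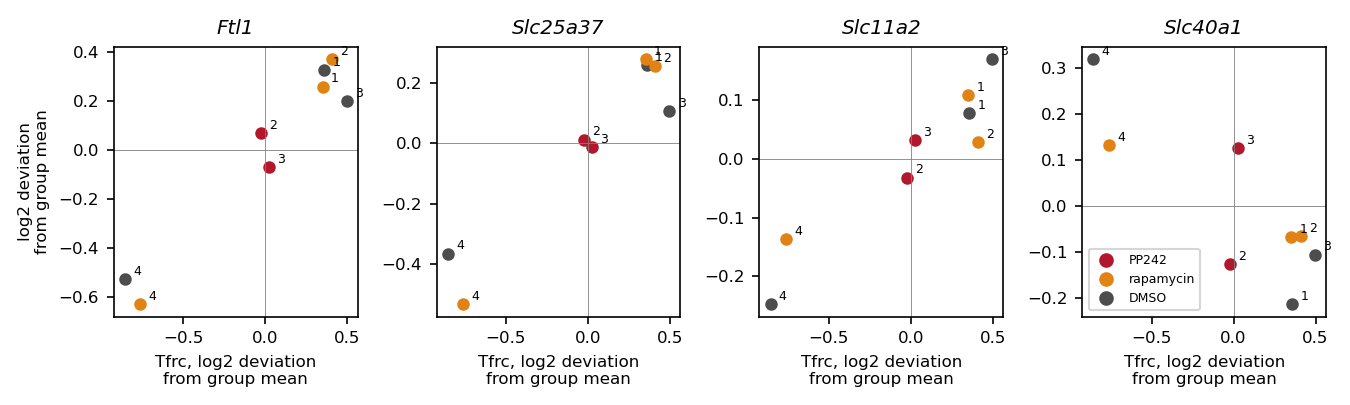
Deviation of Tfrc from its group mean (x axis, log2) against that of Ftl1, Slc25a37, Slc11a2 and Slc40a1 (y axes, log2) on the 8 arrays, coloured by treatment and numbered by replicate. DMSO 4 and rapamycin 4 lie apart from the other arrays at the left of each panel.

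The genes whose pattern over the 8 arrays was most like that of Tfrc were Slc25a13, a mitochondrial aspartate-glutamate carrier (r = 0.992), Mmgt1 (0.992), Got1, the cytosolic aspartate aminotransferase (0.991), Fam98a (0.991) and Rab5if (0.989). The most opposite were Csad, cysteine sulfinic acid decarboxylase (-0.995), Gprasp1 (-0.994) and Arvcf, a catenin (-0.993). In all, 474 of 10763 genes had r over 0.9 and 579 had r under -0.9, so such a likeness was not rare. Over all 12 arrays the correlations of the 5 most alike were 0.64 to 0.89, and those of the opposite genes were weaker still for Csad (-0.41) and Gprasp1 (-0.26), with -0.75 for Arvcf. Tfrc had the widest range of them: Slc25a13 averaged 1.53 with PP242, 2.16 with rapamycin and 2.53 with DMSO, where Tfrc averaged -0.71, 1.39 and 2.39. None of the other 9 iron genes was among the alike, and the nearest, Slc11a2, had r = 0.76 and ranked 1637th.

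Around these genes, 93 further genes of iron metabolism in 5 lists were looked at. On the 8 arrays 79 were measured, and 22 of them (27.8%) passed for PP242 against DMSO, 7 higher and 15 lower, beside the 26.1% of all genes. Their median difference was -0.07, against -0.01 for all genes. For PP242 against rapamycin 9 of 79 (11.4%) passed, 3 higher and 6 lower, beside 14% of all genes. For rapamycin against DMSO 0 passed in limma, beside 0.0559% of all genes. There 16 had an unadjusted p under 0.05, beside 2596 of all 19669 genes. The 22 calls became 5 without PP242 2, 6 without PP242 3, 12 without DMSO 3 and 14 without rapamycin 1. The 9 calls against rapamycin became 0 without PP242 2 or PP242 3, 5 without DMSO 1 or DMSO 3, and 4 without rapamycin 1 or rapamycin 2. Among the 8 arrays, slide 1 held all 3 groups, slide 2 only rapamycin 2 and PP242 3, and slide 3 only DMSO 3 and rapamycin 4. PP242 and DMSO thus met on slide 1 alone, and group and slide could not be fully separated. With the slide as a block, 2 of the 22 calls against DMSO (Flvcr1 and Glrx5) and 0 of the 9 against rapamycin remained. Every other call named below was lost in that fit. On all 12 arrays 0 of 85 passed in any comparison in limma, with 5, 3 and 0 at an unadjusted p under 0.05 in PP242 against DMSO, PP242 against rapamycin and rapamycin against DMSO. Of all 25581 genes, 2214, 890 and 451 had such a p in the same order.

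Among 15 measured genes of iron uptake, export and storage, 1 rose and 3 fell with PP242 against DMSO (median -0.20). The called share was 26.7%, beside the 26.1% of all genes. Flvcr1, a heme exporter, fell by 1.11 ± 0.08 on the log2 scale (limma adjusted p = 0.000535), kept its call without each array in turn and in 9 of 9 other settings, and was also lower than with rapamycin (-0.59 ± 0.08, limma adjusted p = 0.00748). Its means were 0.13 with PP242, 0.72 with rapamycin and 1.24 with DMSO. Slc39a14, an iron and zinc importer, fell by 1.06 ± 0.27 (limma adjusted p = 0.0327), a call lost without DMSO 3 (-1.05), DMSO 4 (-0.94), rapamycin 1 (-1.06), PP242 2 (-1.13) or PP242 3 (-0.98). A dimmer Slc39a14 probe, above background on all 8 arrays, gave -0.47, the mean of both probes -0.76 without a call (limma adjusted p = 0.0857), and the deposited table -0.64. Ncoa4, the receptor that brings ferritin to autophagosomes, rose by 1.06 ± 0.31 (limma adjusted p = 0.0483), and its 3 probes gave 1.06 to 1.22. That call held without rapamycin 4 and was lost without any other single array, with differences of 0.84 to 1.17. Heph, a ferroxidase, fell by 0.53 ± 0.16 (limma adjusted p = 0.0493), and its call was lost without DMSO 3 (-0.51), DMSO 4 (-0.42), rapamycin 1, rapamycin 2, PP242 2 or PP242 3 (-0.53 each), and in 6 of 9 other settings, with -0.24 in the deposited table. Heph read -3.93 and -3.94 on PP242 2 and 3, below the 4 DMSO arrays at -3.65 to -2.85. On PP242 1 and PP242 4, arrays with raised dim probes, it read -1.66 and -1.27, above them. The other Heph probe was well above background on 0 of the 8 arrays. Slc46a1, a transporter of folate and heme, was higher with PP242 than with rapamycin (0.76 ± 0.18, limma adjusted p = 0.0426). The iron chaperones Pcbp2 (0.21) and Pcbp1 (-0.22) did not pass, and the 3 Pcbp2 probes differed in sign.

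Among 13 measured genes that control the regulatory proteins, Tfrc mRNA or hepcidin signalling, 1 rose and 1 fell (median 0.02). The called share was 15.4%, beside the 26.1% of all genes. Both called genes encode zinc-finger proteins that destabilize mRNAs with AU-rich elements. Zfp36, whose product tristetraprolin is reported to bind Tfrc mRNA, averaged 1.11 with PP242, 0.91 with rapamycin and 0.56 with DMSO, a rise of 0.55 ± 0.14 (limma adjusted p = 0.0298). The call was lost without DMSO 1 (0.55), DMSO 3 (0.52), PP242 2 (0.50) or PP242 3 (0.60), and a dimmer probe gave 0.54. Zfp36l2 fell by 1.02 ± 0.18 (limma adjusted p = 0.00829) and was lower than with rapamycin too (-1.17 ± 0.18, limma adjusted p = 0.00949). The call against DMSO was lost without PP242 2 (-0.97) or PP242 3 (-1.08). In the deposited table the Zfp36l2 difference was -0.39 from DMSO and -0.43 from rapamycin, and both passed. Skp1, a ubiquitin ligase subunit, and Smad4, a signalling factor, did not pass, with -0.29 and 0.05.

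Of 29 measured genes of iron-sulfur cluster assembly, 3 rose and 6 fell with PP242 against DMSO (median -0.07), a called share of 31% beside the 26.1% of all genes. Glrx5, a mitochondrial glutaredoxin that passes clusters on, averaged 3.65 with PP242, 4.36 with rapamycin and 4.66 with DMSO, a fall of 1.02 ± 0.10 (limma adjusted p = 0.00126) that kept its call without each array in turn and in 9 of 9 other settings. Ciapin1, an electron donor for cytosolic cluster assembly, fell by 0.69 ± 0.09 (limma adjusted p = 0.00348), and Nfu1, a late-acting mitochondrial carrier, rose by 0.68 ± 0.09 (limma adjusted p = 0.00376). Both calls were kept without each array in turn and in 8 of 9 other settings, the exception being the slide block (limma adjusted p = 0.0517 for Ciapin1 and 0.0584 for Nfu1). Hscb, the co-chaperone that acts on Iscu, rose by 1.82 ± 0.37 (limma adjusted p = 0.0145), a call lost without PP242 2 (1.75) or PP242 3 (1.90). Against rapamycin, Glrx5 (-0.71) and Ciapin1 (-0.46) were lower and Nfu1 (0.46) and Mms19 (0.47), a targeting factor for cytosolic clusters, were higher. The chaperone Hspa9 (-0.23) and the cluster protein Cisd1 (-0.50) did not pass.

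Of 18 measured genes of heme synthesis and breakdown, 2 rose and 4 fell with PP242 against DMSO (median 0.01). The called share was 33.3%, beside the 26.1% of all genes. The synthesis enzyme Alad fell by 0.61 ± 0.09 (limma adjusted p = 0.00491), while Ppox, a later step, rose by 0.64 ± 0.12 (limma adjusted p = 0.0113). Blvra, which turns biliverdin into bilirubin, fell by 0.62 ± 0.12 (limma adjusted p = 0.0113). Alad lost its call without PP242 2 (-0.59), and Ppox and Blvra lost theirs without PP242 2 (0.60 and -0.65) or PP242 3 (0.67 and -0.59). Blvra was also lower with PP242 than with rapamycin (-0.54). Pgrmc1 (0.24) and Urod (0.17) did not pass.

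Of 4 measured genes whose mRNAs carry other iron-responsive elements, 1 fell: Pfn2, a profilin, by 0.40 ± 0.09 (limma adjusted p = 0.0230), with -0.41 from a dimmer probe and its call lost without DMSO 3 (-0.42), rapamycin 1 (-0.40), PP242 2 (-0.37) or PP242 3 (-0.44). Ndufs1, a subunit of respiratory complex I (-0.13), did not pass. The called share of these 4 genes was 25%, beside the 26.1% of all genes.

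**Figure D5:**
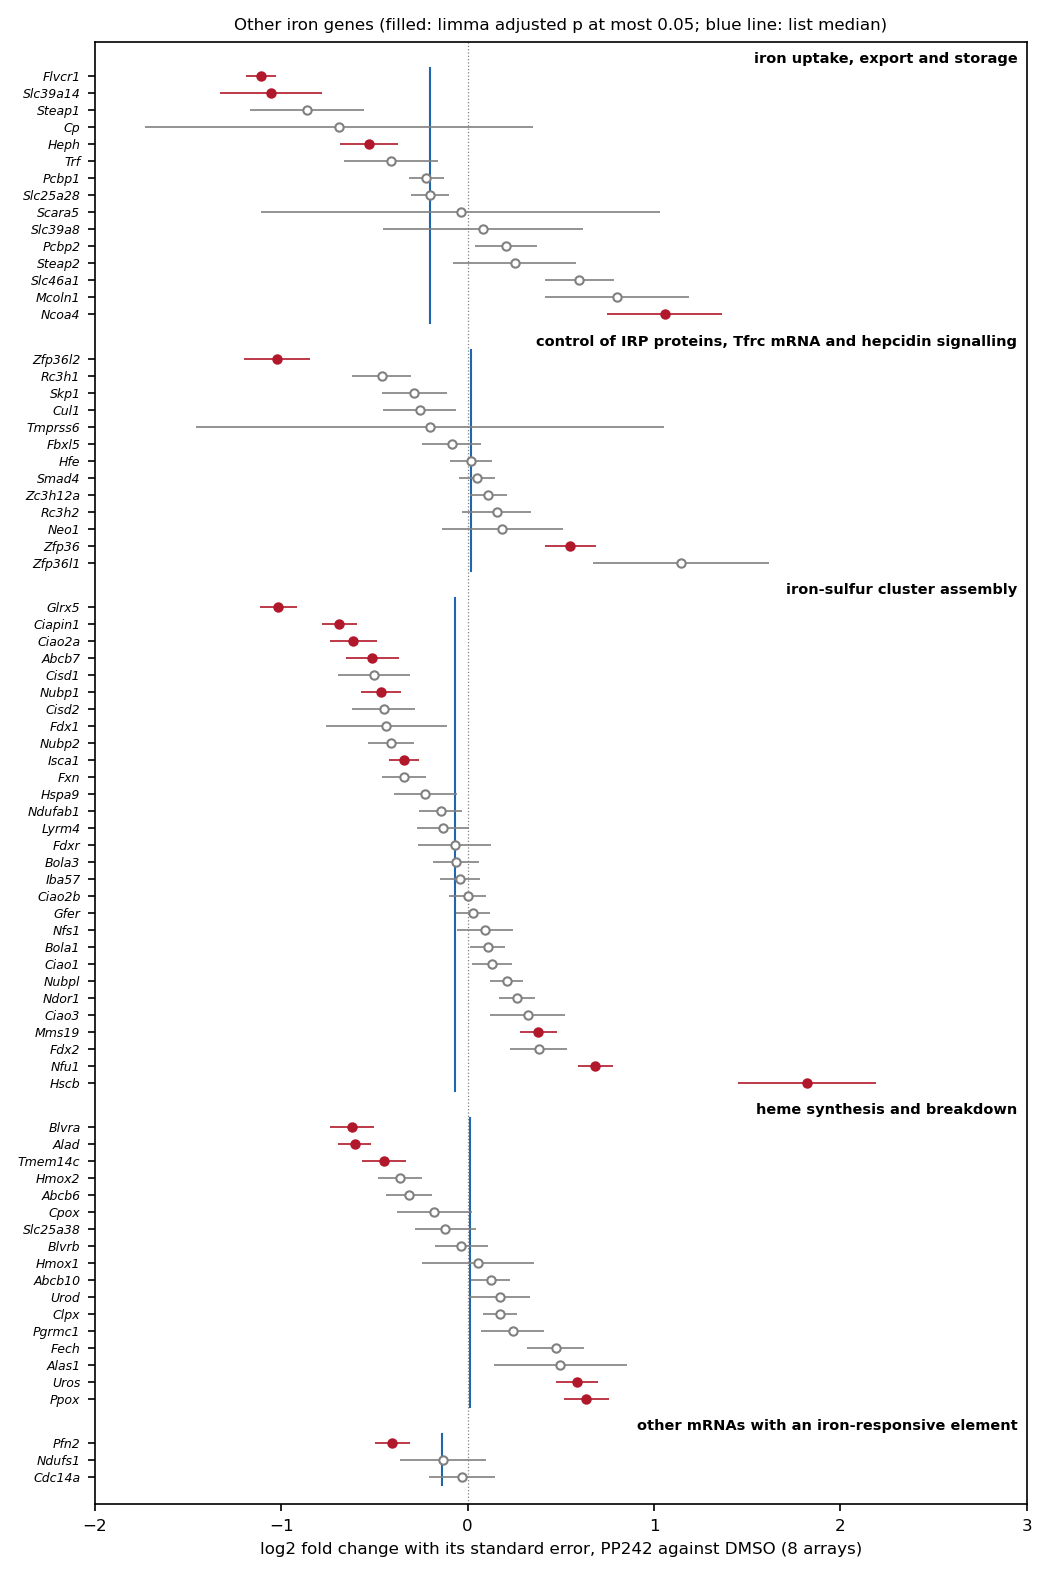
Log2 fold change with its standard error for 77 of the 79 measured genes of the 5 other lists, PP242 against DMSO on the 8 arrays; filled points passed the limma test and blue lines are medians of all measured genes of a list. The medians lie between -0.20 and 0.02, and the called genes fall on both sides of 0, from Flvcr1 at -1.11 to Hscb at 1.82.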

How the data were processed

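Each deposited scanner file holds the linear intensity of every spot of an array. Per the file headers, Agilent Feature Extraction 10.5.1.1 subtracted background and detrended each array without scaling between arrays; the submitters' processing notes name version 10.1. The deposited value table holds log2 values of the same arrays, made in a way that no source used here gives, and served as an alternative. Control spots and the 1.52% of spots marked as outliers were left out, spots of a probe were averaged, and log2 values minus the array's 75th percentile were fitted with limma 3.58.1 in R 4.3.3 (lmFit, eBayes, 3 groups, two-sided, Benjamini-Hochberg over all genes, threshold 0.05). Probes had to be well above background on at least 4 of 12 arrays, or 2 of 8. The 8 arrays are those whose 75th percentile exceeded 100 times the 25th, a measure that uses no named gene. Accessions were matched to symbols with RefSeq (GRCm38.p6). No spot of a gene probe was saturated. The number of arrays limits the precision.

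All 10 genes are described whatever their result. In each other list, up to 4 genes that passed (by adjusted p) and 2 that did not (by level) are named, except a few that are not reported here and stay in the counts. Genes like Tfrc were ranked by Pearson correlation over the 8 arrays. The members, lists and the choice of the 8 arrays were made with earlier results of these data known. The fit was tested on simulated data with the same spread for every gene and array. That test does not cover arrays with raised dim probes or differences between slides. Alternatives were quantile normalisation, median centring, normexp background correction with an offset of 50, the deposited table, other filters, the mean of probes, fits of the compared groups alone, blocks for slide or for replicate number, array weights, an intensity trend and leaving out each array.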

Additional observations from a re-analysis of the deposited data

Results flagged for a closer look

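Within the 30 groups of 4 arrays that the 10 genes give, 6 held an array far from the other 3 (the gap to its nearest neighbour was more than 0.829 of the group's range, which chance alone gives in about 1 in 20 groups). Of these, 5 were on arrays with raised dim probes, 4 of them on rapamycin 3. Slc11a2 read -0.98 on PP242 4, against -0.14 to -0.01 on the other PP242 arrays, and -1.37 on rapamycin 3, against -0.07 to 0.18. Fth1 read 5.16 on rapamycin 3, against 7.54 to 7.78, and Aco1 read 0.07, against 2.32 to 2.40. Before scaling, Fth1 read 269150 units on rapamycin 3, within the 233366 to 295789 of the other rapamycin arrays. Aco1 read 7930 units there, within their 5785 to 8392. The 75th percentile was 7538 units on rapamycin 3, against 1162 to 1594 on the other rapamycin arrays. Ireb2 was the gene that read high on rapamycin 3, at -0.35 against -2.74 to -2.64. Slc40a1 read -1.63 on rapamycin 4, an array without raised dim probes, against -1.84 to -1.82 on the other rapamycin arrays. The causes were not tested.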

How the results depend on the processing

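The Tfrc difference between PP242 and DMSO was below 0 under every alternative run. On 12 arrays it lay between -4.08 (median centring) and -2.69 (deposited table), and between -3.47 and -3.01 without each array in turn. On 8 arrays it lay between -3.54 (replicate block) and -2.43 (deposited table), and between -3.53 and -2.85 without each array in turn. No result changed direction with a call on either side.

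For the 9 other genes on 8 arrays, the 2 calls of PP242 against DMSO became 4 with array weights, 1 with quantile normalisation, the deposited table, the mean of probes or only the groups compared, and 0 with median centring or the slide block, and 0 to 3 without each array in turn. The 1 call against rapamycin became 3 with array weights, 2 with quantile normalisation or the deposited table, 0 with the mean of probes or the slide block, and 0 to 2 without each array. On 12 arrays the 0 calls became 4, 3 and 1 with array weights (PP242 against DMSO, PP242 against rapamycin, rapamycin against DMSO), and 1 in each comparison with PP242 without rapamycin 3, a range of 0 to 1.

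For the further iron genes on 8 arrays, the 22 calls became 39 with array weights, 12 with median centring and 2 with the slide block, and 5 to 25 without each array; the 9 against rapamycin became 38 with array weights, 4 with median centring or only the groups compared and 0 with the slide block, and 0 to 11 without each array; and the 0 of rapamycin against DMSO became 16 with array weights and 1 with the filter on all arrays. On 12 arrays the 0 calls became 39, 37 and 14 with array weights, in the order above, and 7 for PP242 against DMSO with only the groups compared; without rapamycin 3 they became 11 and 2 in the comparisons with PP242.

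Deviations of arrays with the same replicate number had r on 8 arrays of 0.45 and 0.62 for DMSO and rapamycin numbers 1 and 4. Pairs of DMSO and rapamycin arrays with different numbers had r of -0.47 to 0.39. The value was 0.12 for number 3 of DMSO and PP242, and -0.25 for number 2 of PP242 and rapamycin. The 2 PP242 arrays deviate from their mean by equal and opposite amounts, so the last 2 values cannot decide on a pairing. The descriptions state no pairing, so the main fits used none. With the replicate block the counts on 8 arrays were 0 and 0 of the 9 genes, and 2 of the further genes against rapamycin. Over all genes, the 88 calls of PP242 against DMSO on 12 arrays ranged from 0 (median centring, slide or replicate block) to 10173 (array weights), and leaving out a DMSO array (each of 4) or PP242 1, 2 or 3 gave 0 calls, and leaving out rapamycin 3 gave 3134. The 5135 on 8 arrays ranged from 1412 (slide block) to 9253 (array weights), and from 1792 to 6129 without each array. The 2744 calls against rapamycin on 8 arrays ranged from 518 (slide block) to 7451 (array weights), and from 492 to 3475 without each array, and the 11 of rapamycin against DMSO from 0 to 2821 (array weights). Why the counts differ was not tested. Of the values of single genes, 1603 stayed on their side of the threshold or within the spread, 169 lost a call, 30 gained one and 40 moved by more than the spread. With 2 PP242 arrays among the 8, the fit without 1 of them assumes that the other varies as the rest do.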
